A study of Mus musculus with 6 samples.

Results

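Lungs of mice with the genotype Col6a1-/-, at the gene of collagen VI chain alpha 1, were compared with wildtype lungs. In them, 10 genes of vascular endothelial growth factor (VEGF) and angiopoietin signalling were followed. They were taken by name as the VEGF-family ligand genes Vegfa, Vegfb and Pgf, the VEGF receptor genes Kdr and Flt1, the angiopoietin genes Angpt1 and Angpt2, the Tie receptor genes Tek and Tie1, and Nos3, the gene of endothelial nitric oxide synthase. All 10 were among the 49568 rows of the deposited table, and all 10 were among the 16879 genes that passed the filter on low values. The mice were Col6a1-/- or wildtype, all C57BL/6 and 6 weeks of age. RNA came from perfused right lung lobes, and each of the 6 libraries (3 per genotype) was a pool of RNA from 2 animals, with 12 animals in all. The labels name no allele beyond Col6a1-/-, and they do not give the sex of the animals.

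VEGF ligands bind receptor tyrosine kinases on endothelial cells and drive their survival, growth and permeability. Kdr encodes the main signalling receptor for VEGF-A, and Flt1 encodes a receptor that binds VEGF-A, VEGF-B and placental growth factor and that also exists in a secreted form which captures ligand. Angpt1 activates the receptor encoded by Tek and stabilises vessels, Angpt2 acts on the same receptor as a partial or context-dependent antagonist, and Tie1 encodes a partner receptor that modulates Tek. In the adult lung these receptors are carried mainly by the dense alveolar capillary endothelium, while alveolar epithelial type 1 cells are a major source of VEGF-A in the mouse.

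The genes were read as DESeq2-normalized counts, that is, reads per gene divided by a scaling factor of each library. Between 28055414 and 37904878 reads per library fell in genes. Col6a1, the targeted gene, had 10034, 10616 and 9344 normalized counts in the Col6a1-/- libraries, against 19907, 18393 and 22331 in the wildtype libraries, so that every Col6a1-/- library lay below every wildtype library while reads of the gene were still present. The pools differed in sex. The level of 4 Y-linked genes, relative to the library with the lowest Xist, was 72.5%, 100% and 51.1% in the Col6a1-/- pools, numbered 1, 2 and 3, against 0.347%, 3.35% and 51.5% in the wildtype pools, numbered likewise. Genotype and sex can therefore be told apart only in part. Wildtype replicate 3 was the only wildtype pool with a male share near that of a Col6a1-/- pool, which was replicate 3. No wildtype pool had a male share near those of Col6a1-/- replicates 1 and 2. Reads of mitochondrial genes made up 1.88% to 2.29% in Col6a1-/- and 1.09% to 1.99% in wildtype libraries, and their part in the results was not tested.

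The promoters of 3 receptor genes are shown because these genes had every Col6a1-/- library below every wildtype library. They are the 250 bases before the RefSeq start of each gene, on GRCm38.p6, written 5′ to 3′ on the strand of the gene. Capitals mark GGAA and its reverse complement TTCC, the core bound by ETS factors, which are regulators of many endothelial genes. Flt1 lay at chr5:147726012-147726261 on the minus strand, Kdr at chr5:75978456-75978705 on the minus strand and Tek at chr4:94739039-94739288 on the plus strand.
Flt1: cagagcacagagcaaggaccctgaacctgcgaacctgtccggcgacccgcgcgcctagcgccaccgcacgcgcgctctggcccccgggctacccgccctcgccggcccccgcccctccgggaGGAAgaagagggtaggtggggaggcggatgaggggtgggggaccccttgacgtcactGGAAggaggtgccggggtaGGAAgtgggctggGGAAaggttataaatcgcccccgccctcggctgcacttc
Kdr: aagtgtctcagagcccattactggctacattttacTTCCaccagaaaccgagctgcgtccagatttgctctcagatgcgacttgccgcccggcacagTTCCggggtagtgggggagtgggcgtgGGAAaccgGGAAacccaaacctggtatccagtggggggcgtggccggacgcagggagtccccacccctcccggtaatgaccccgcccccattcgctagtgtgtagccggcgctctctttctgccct
Tek: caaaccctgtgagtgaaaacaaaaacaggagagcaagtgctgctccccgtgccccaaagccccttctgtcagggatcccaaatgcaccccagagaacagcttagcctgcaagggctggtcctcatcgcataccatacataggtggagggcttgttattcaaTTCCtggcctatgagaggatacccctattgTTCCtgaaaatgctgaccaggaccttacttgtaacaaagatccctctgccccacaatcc
The core occurred 4 times before Flt1, 4 times before Kdr, 2 times before Tek and 7 times before Tie1. It was present in 93.4% of all 32851 promoters of the same length, with a median of 3 matches, and in 93.2% of the 15339 promoters of tested genes. The hypoxia response core ACGTG was found before none of the 4 receptor genes, and it was present in 16.6% of all promoters and 20.3% of those of tested genes. GCGTG, the other form of that core, occurred 2 times before Kdr and 1 time before Flt1, and was present in 28.2% of all promoters and 41.4% of those of tested genes. GGGCGG, the core bound by SP1, was found before Flt1 (3 matches) and Kdr (2 matches), and was present in 32.7% of all promoters and 53.5% of those of tested genes. CACCC, the core bound by KLF factors, was found before all 4, and was present in 52.0% of all promoters and 58.2% of those of tested genes. Both strands were searched for every motif.

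To rank the 10 genes, levels were divided by the length of the longest annotated transcript. Vegfa was the highest of the 10, with 9266 ± 722 normalized counts per kb in Col6a1-/- lungs and 9582 ± 557 in wildtype lungs (SD, n = 3 pools each), above 99.3% of tested genes. The receptors Kdr, Tie1 and Tek followed. Per kb, Kdr had 2936 ± 235 in Col6a1-/- and 3349.8 ± 125 in wildtype lungs, Tie1 had 2918 ± 289 in Col6a1-/- and 3278 ± 113 in wildtype lungs, and Tek had 2687 ± 86.4 in Col6a1-/- and 3049.9 ± 62.9 in wildtype lungs. The ranges of these 3 genes over the 6 libraries overlapped from each gene to the next. Such ranges cannot settle their order, because they mix libraries, and the order within each library was not compared. Flt1 came next, with 1226 ± 154 per kb in Col6a1-/- lungs and 1592 ± 36.1 in wildtype lungs, and its range did not meet that of Tek or Angpt1. Angpt1 and Vegfb overlapped with each other, as did Angpt2 and Nos3. Pgf was the lowest, with 75.6 ± 9.25 per kb in Col6a1-/- lungs and 91.2 ± 14.8 in wildtype lungs.

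**Figure D1:**
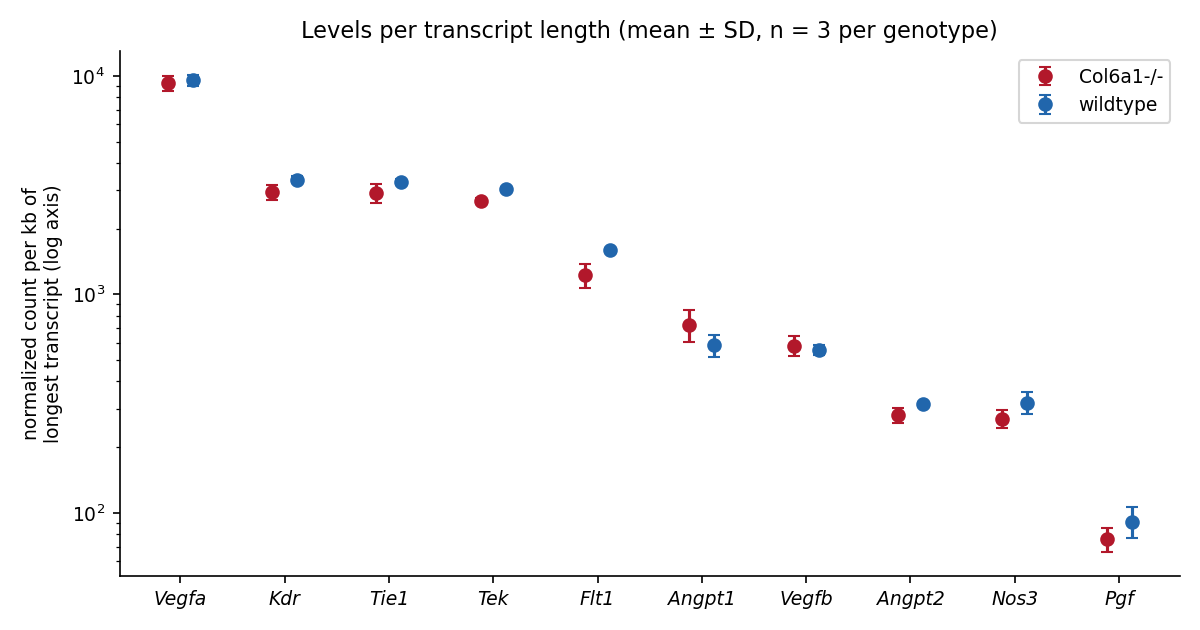
Normalized count per kb of the longest transcript (log axis) for the 10 genes, ordered by their mean over all libraries. Points are means and bars SDs over 3 libraries, with Col6a1-/- left of wildtype for each gene. Vegfa stood alone at the top, Kdr, Tie1 and Tek formed a group, and Pgf was lowest.

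Col6a1-/- lungs were then compared with wildtype lungs gene by gene. None of the 10 genes passed a threshold of 0.05 after Benjamini-Hochberg adjustment in limma, where 0.0652% of all tested genes (11 genes) passed, 0.0474% lower and 0.0178% higher. edgeR on recovered reads called none of the 10 and 0.077% of all tested genes, and limma without wildtype replicate 3 called none of the 10 and 8.26% of all tested genes. At an unadjusted p under 0.05 there were 2 of the 10, Flt1 lower and Angpt1 higher, where 20.3% of all tested genes were past that mark, 10.6% lower and 9.72% higher. Of the 10 genes, 8 had lower estimates in Col6a1-/- lungs, against 48.3% of all tested genes, and the median log2 fold change of the 10 was -0.18, against 0.0098 over all tested genes. In 4 genes (Kdr, Flt1, Tek and Angpt2) every Col6a1-/- library lay below every wildtype library, which was so for 14.2% of all tested genes, and in none of the 10 did every Col6a1-/- library lie above every wildtype library, which was so for 10.7%. In these bulk samples, fewer cells of a type and less RNA per cell cannot be told apart.

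**Figure D2:**
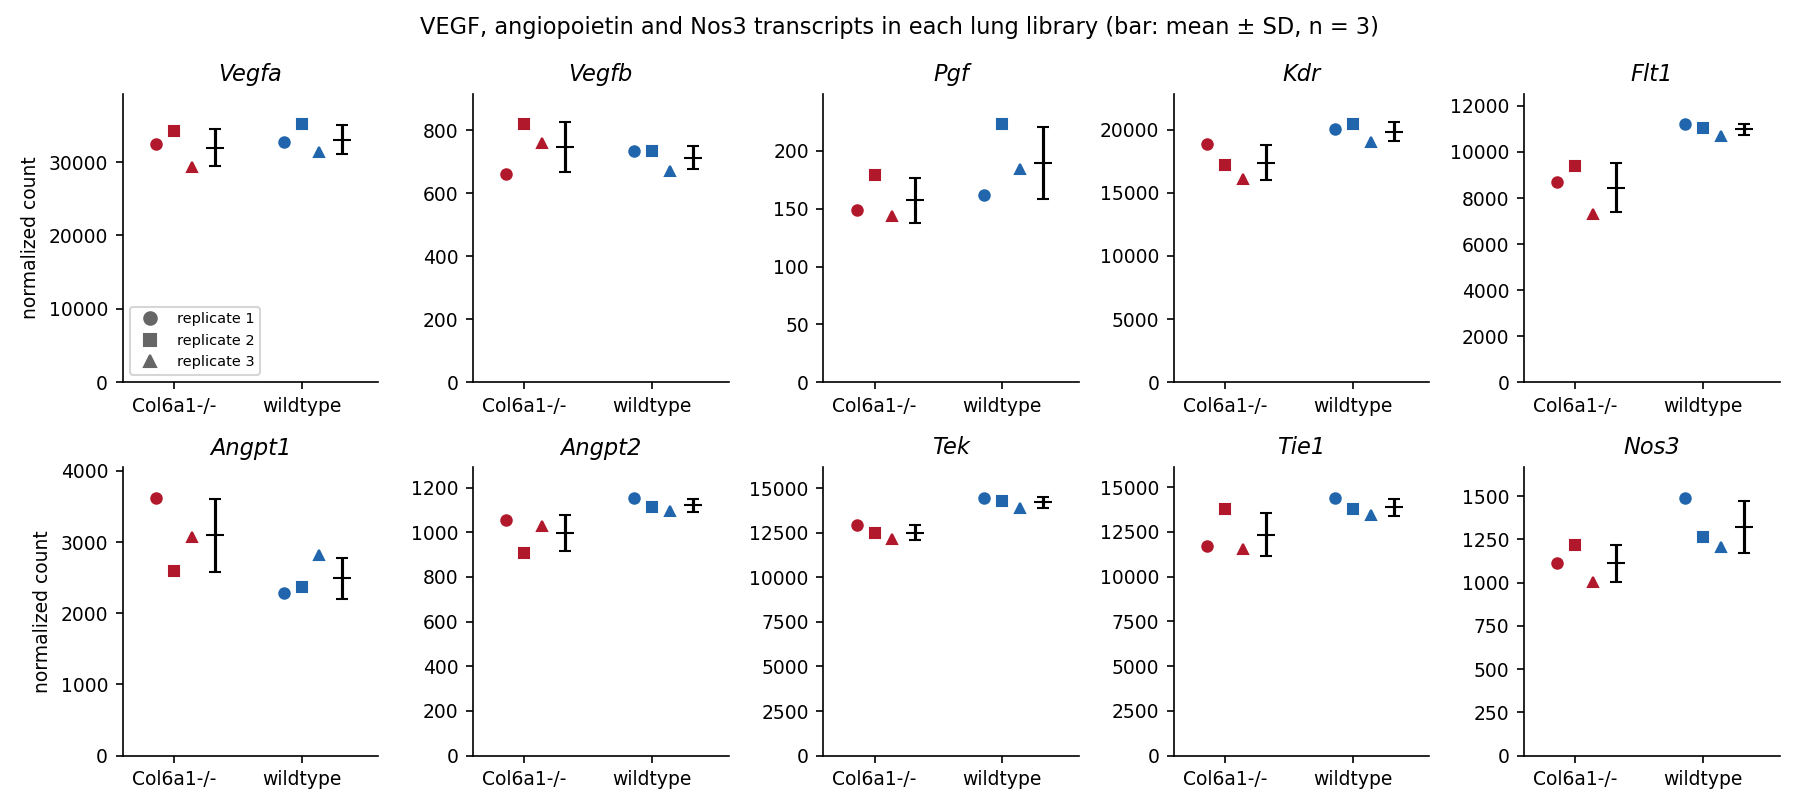
Normalized counts of the 10 genes in each library, with Col6a1-/- left of wildtype in each panel, 1 symbol per replicate and axes that start at 0. Bars give the mean and SD over 3 libraries. The genotypes separate without overlap for Kdr, Flt1, Angpt2 and Tek.

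The VEGF ligands showed no difference past the threshold. Vegfa (ENSMUSG00000023951.17, chromosome 17, 46016993 to 46032369, minus strand, GRCm38), the principal VEGF, had 32492, 34169.7 and 29265 normalized counts in Col6a1-/- replicates 1, 2 and 3, against 32770.2, 35120.0 and 31307 in wildtype replicates 1, 2 and 3. The genotypes overlapped almost fully. The log2 fold change was -0.05 with a 95% interval of -0.28 to 0.18 (limma adjusted p 0.815), and the sign of this small estimate turned positive under quantile normalization, after a smooth trend of the log2 values on transcript length and GC content was removed from each library (the length and GC trend), and without Col6a1-/- replicate 3. Reads were counted per gene, so that the splice forms of Vegfa, which differ in matrix binding, were not separated.

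Vegfb (ENSMUSG00000024962.13, chromosome 19, 6982473 to 6987651, minus strand), a ligand of the Flt1 product linked to fatty acid handling in heart and muscle, had 662, 818 and 759 normalized counts in Col6a1-/- lungs, against 733, 732 and 670.0 in wildtype lungs. These libraries overlapped, with a log2 fold change of 0.06, a 95% interval of -0.17 to 0.30 and a limma adjusted p of 0.764, and the estimate was -0.03 after removal of the length and GC trend and -0.0049 without Col6a1-/- replicate 2. Pgf (ENSMUSG00000004791.7, chromosome 12, 85166635 to 85177790, minus strand), placental growth factor, had 148, 179 and 144 in Col6a1-/- lungs, against 162, 223 and 184 in wildtype lungs. In Col6a1-/- lungs it averaged 82.9% of wildtype, and the widest interval among the 10 (-0.62 to 0.10 on the log2 scale, limma adjusted p 0.382) went with its low count. Col6a1-/- replicate 2 was the library in which it exceeded a wildtype library. The Pgf log2 fold change was -0.14 without wildtype replicate 2 and -0.40 with the male share as a covariate.

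Flt1 had the largest difference of the 10 genes. Flt1 (ENSMUSG00000029648.13, chromosome 5, 147561604 to 147726011, minus strand) had 8685, 9376 and 7289 normalized counts in Col6a1-/- lungs, against 11197, 11035 and 10709 in wildtype lungs. All Col6a1-/- libraries lay below all wildtype libraries, and the spread was wider in the Col6a1-/- libraries, with means of 8449.9 ± 1063 in Col6a1-/- pools against 10980.3 ± 249 in wildtype pools (SD, n = 3 each). The mean in Col6a1-/- lungs was 77.0% of wildtype, with a log2 fold change of -0.39 ± 0.10 (SE, limma adjusted p 0.111). A fold change at or under that of Flt1 was found for 6.17% of all tested genes.

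In the authors' deposited table, Flt1 had a log2 fold change of -0.34 with an adjusted p of 0.0265, and it was the only one of the 10 genes under 0.05, where 5.05% of genes with an adjusted p in that table were, 3.18% lower and 1.87% higher. DESeq2 on the recovered reads gave -0.38 with an adjusted p of 0.0265. That fit called 742 genes, as many as the authors' table, so it repeats their result and is not a separate one. Limma with library quality weights gave -0.45 with an adjusted p of 0.00833, in a fit that called 19.1% of all tested genes. After the length and GC trend was removed, the Flt1 log2 fold change was -0.20 (limma adjusted p 0.189), and a fit that took the male share of the pools as a covariate gave -0.52 (limma adjusted p 0.614). In the pools of mixed sex, Flt1 had 8685 and 7289 in Col6a1-/- replicates 1 and 3, against 10709 in wildtype replicate 3. The secreted and the membrane form of Flt1 were not separated by these counts.

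Kdr (ENSMUSG00000062960.10, chromosome 5, 75932827 to 75978458, minus strand) had 18883, 17169.6 and 16125 normalized counts in Col6a1-/- lungs, against 20096, 20424 and 19013 in wildtype lungs. The genotypes did not overlap, but the gap was narrow, since Col6a1-/- replicate 1 lay just under wildtype replicate 3. The mean was 87.6% of wildtype, with a log2 fold change of -0.19 ± 0.10 (SE, limma adjusted p 0.282). With the length and GC trend removed the estimate was -0.04.

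The Tie receptors had smaller estimates than Flt1. Tek (ENSMUSG00000006386.15, chromosome 4, 94739289 to 94874976, plus strand), the angiopoietin receptor, had 12929.8, 12460.3 and 12129.9 normalized counts in Col6a1-/- lungs, against 14445, 14266 and 13873 in wildtype lungs. Its replicates were the tightest of the receptors relative to their gap, with means of 12507 ± 402 in Col6a1-/- pools against 14194 ± 293 in wildtype pools (SD, n = 3 each), 88.1% of wildtype, and a log2 fold change of -0.18 ± 0.08 (SE, limma adjusted p 0.249). Tie1 (ENSMUSG00000033191.14, chromosome 4, 118471191 to 118490061, minus strand) had 11725, 13767 and 11573 in Col6a1-/- lungs, against 14402, 13774 and 13459 in wildtype lungs. Col6a1-/- replicate 2 lay inside the wildtype range for Tie1. Its log2 fold change was -0.17 (SE 0.10, limma adjusted p 0.338), or -0.06 with the length and GC trend removed.

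The angiopoietin ligands had estimates of opposite sign. Angpt1 (ENSMUSG00000022309.9, chromosome 15, 42424723 to 42676977, minus strand) had 3621, 2595 and 3077 normalized counts in Col6a1-/- lungs, against 2289.9, 2371 and 2823 in wildtype lungs. Wildtype replicate 3 lay above Col6a1-/- replicate 2, so the genotypes overlapped. The mean in Col6a1-/- lungs was 124% of wildtype, 3097 ± 513 in Col6a1-/- against 2495 ± 287 in wildtype lungs (SD over 3 pools), and the log2 fold change was 0.30 ± 0.13 (SE, limma adjusted p 0.22). It was 0.19 without Col6a1-/- replicate 1. An estimate at or above that of Angpt1 was found for 14.5% of all tested genes. After the length and GC trend was removed, the Angpt1 log2 fold change was 0.05 (limma adjusted p 0.707). With library quality weights in limma it was 0.40 with an adjusted p of 0.0186, in a fit that called 19.1% of all tested genes. The longest Angpt1 transcript had a GC content of 39.3%, the lowest of the 10 genes.

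Angpt2 (ENSMUSG00000031465.6, chromosome 8, 18690263 to 18741562, minus strand) had 1057, 906 and 1028 normalized counts in Col6a1-/- lungs, against 1154, 1113 and 1095 in wildtype lungs. The genotypes did not overlap, and the mean was 89.0% of wildtype, with a log2 fold change of -0.17 ± 0.09 (SE, limma adjusted p 0.329). The estimate was the same to 2 decimals, -0.17, with the length and GC trend removed, and it was -0.05 with the male share as a covariate and -0.10 without Col6a1-/- replicate 2.

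Nos3 (ENSMUSG00000028978.12, chromosome 5, 24364810 to 24384474, plus strand), whose product makes nitric oxide in endothelium downstream of VEGF, had 1111, 1218 and 1006 normalized counts in Col6a1-/- lungs, against 1489, 1266 and 1204 in wildtype lungs. Wildtype replicate 3 lay just under Col6a1-/- replicate 2, and wildtype replicate 1 stood above the rest. The mean was 84.2% of wildtype, with a log2 fold change of -0.25 ± 0.11 (SE, limma adjusted p 0.248). It was -0.16 without wildtype replicate 1 and -0.14 with the length and GC trend removed. Exons of Nos3 share 294 bases with Atg9b and 1040 bases with Gm15587 on the opposite strand, and the sources used here do not give the strand setting of the counting. These genes averaged 31.3 and 43.7 normalized counts over the 6 libraries, against 1216 for Nos3. Exons of Angpt1 share 737 bases with Gm17473 on the opposite strand, which averaged 28.4.

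**Figure D3:**
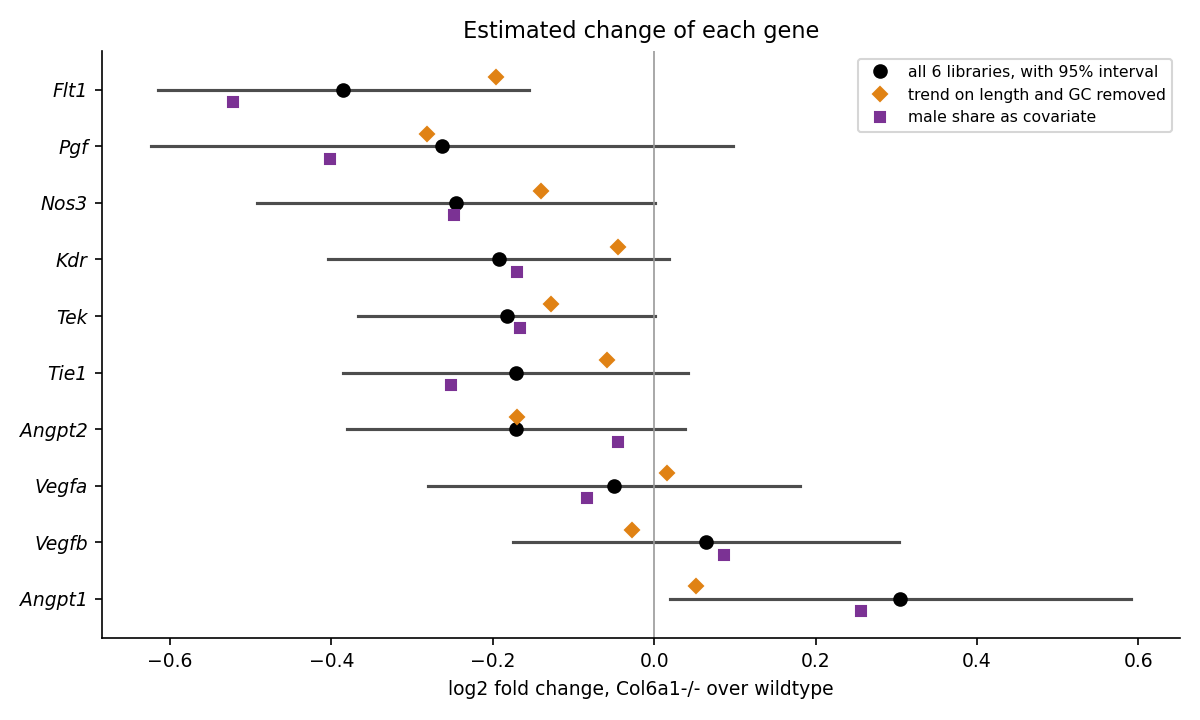
Log2 fold change of Col6a1-/- over wildtype for each gene. Circles give the limma estimate from all 6 libraries with its 95% interval, diamonds the estimate after removal of the trend on length and GC, and squares the estimate with the male share as a covariate. Flt1 had the lowest estimate from all 6 libraries, -0.39, and Angpt1 the highest, 0.30, which was 0.05 after the trend was removed.

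Ratios of transcripts within a library do not depend on the scaling of that library, and 8 were compared by a two-sided exact permutation test over the 6 libraries, whose smallest possible p is 0.1. The ratios were taken from normalized counts plus 1, without division by transcript length, so their size is not a proportion of transcripts. The ratio of Angpt2 to Angpt1 is often read as the balance of antagonist to agonist at the Tek receptor. It was 0.292, 0.350 and 0.334 in Col6a1-/- lungs, against 0.504, 0.470 and 0.388 in wildtype lungs. Every Col6a1-/- library lay below every wildtype library. The difference of the log2 ratio was -0.48 (exact permutation p = 0.1, 0.267 after Benjamini-Hochberg adjustment over the 8 ratios), or -0.22 with the length and GC trend removed, where the genotypes again did not overlap. Without wildtype replicate 3 it was -0.59, and in the pools of mixed sex the ratio was 0.292 and 0.334 in Col6a1-/- replicates 1 and 3 against 0.388 in wildtype replicate 3.

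The ratio of Angpt1 to its receptor gene Tek was 0.280, 0.208 and 0.254 in Col6a1-/- lungs, against 0.159, 0.166 and 0.204 in wildtype lungs. The genotypes did not overlap, although Col6a1-/- replicate 2 and wildtype replicate 3 lay close, and the difference of the log2 ratio was 0.49 (exact permutation p = 0.1, adjusted 0.267), or 0.18 with the trend removed. The ratio of Vegfa to Kdr was 1.72, 1.99 and 1.81 in Col6a1-/- lungs, against 1.63, 1.72 and 1.65 in wildtype lungs. Here Col6a1-/- replicate 1 and wildtype replicate 2 nearly coincided, the difference of the log2 ratio was 0.14 (exact permutation p = 0.1, adjusted 0.267), and with the trend removed it was 0.06 and the genotypes overlapped.

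The other 5 ratios overlapped between the genotypes with the trend left in. Flt1 to Kdr was 0.460, 0.546 and 0.452 in Col6a1-/- lungs, against 0.557, 0.540 and 0.563 in wildtype lungs, so that Col6a1-/- replicates 1 and 3 were low and replicate 2 was not (exact permutation p = 0.2, adjusted 0.32). Tie1 to Tek averaged 0.989 ± 0.103 in Col6a1-/- lungs and 0.978 ± 0.017 in wildtype lungs (SD, n = 3 each). Nos3 to Kdr averaged 0.0641 ± 0.00622 in Col6a1-/- lungs and 0.0665 ± 0.00664 in wildtype lungs. The differences of the log2 ratios of Pgf and Vegfb to Vegfa were -0.21 and 0.11, with adjusted exact permutation p of 0.32 and 0.533. With the trend removed, Pgf to Vegfa differed by -0.30 on the log2 scale and every Col6a1-/- library lay below every wildtype library (exact permutation p = 0.1, adjusted 0.267).

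**Figure D4:**
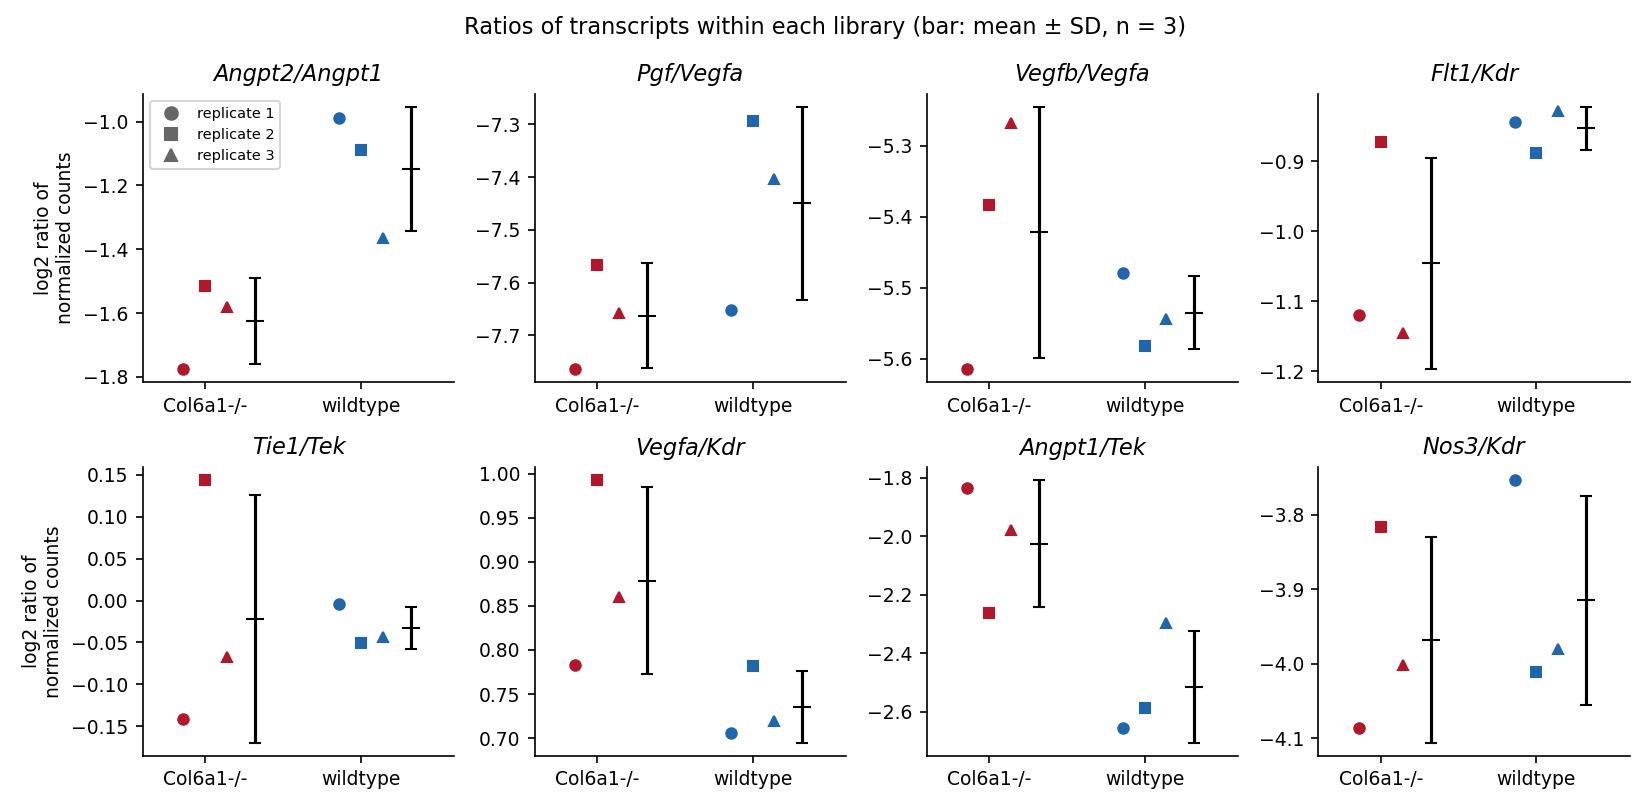
Log2 ratios of normalized counts for 8 pairs of genes in each library, Col6a1-/- left of wildtype, with 1 symbol per replicate and bars for the mean and SD over 3 libraries; axes do not start at 0. All Col6a1-/- libraries lay below all wildtype libraries for Angpt2 to Angpt1, and above them for Angpt1 to Tek and for Vegfa to Kdr.

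The receptors were next set against other endothelial transcripts. The labelled tissue had strong endothelial markers: Cdh5, the cadherin of endothelial junctions, had 37505, 31446 and 31968 normalized counts in Col6a1-/- lungs, against 44141, 43238 and 40939 in wildtype lungs. Of 22 pan-endothelial markers, 14 had lower and 8 higher estimates, limma called none, and the median log2 fold change was -0.05. With the length and GC trend removed that median was -0.098, beside -0.093 for the 10 genes. Of these markers, DESeq2 on recovered reads called 3 and limma with library quality weights called 7. Over the whole table DESeq2 called 742 genes, as many as in the authors' table (5.05%). The weighted fit called 3225 genes (19.1%). The summed level of the 22 was 277054 to 296921 normalized counts in Col6a1-/- lungs and 309583 to 315045 in wildtype lungs, without overlap. The markers did not all have estimates of one sign. Pecam1, an adhesion molecule of endothelial junctions, stood at 81.5% of wildtype (limma adjusted p 0.15), while Sox17, a transcription factor of arterial endothelium, stood at 136% (limma adjusted p 0.0815).

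Relative to the mean log2 level of these markers, Flt1 was 0.02, 0.14 and -0.23 in Col6a1-/- lungs, against 0.31, 0.33 and 0.27 in wildtype lungs. All Col6a1-/- libraries were lower, with a difference of -0.33 on the log2 scale (exact permutation p = 0.1, 0.333 after adjustment over the 10 genes). Tek and Angpt2 were also lower relative to the markers in every Col6a1-/- library, by differences of -0.12 and -0.11 (exact permutation p = 0.1 and adjusted 0.333 for each). With the length and GC trend removed the differences were -0.13, -0.07 and -0.11 for Flt1, Tek and Angpt2, and the genotypes overlapped for each of them. These genes also lay lower without overlap in the normalized counts, as did 14.2% of all tested genes. The share over all tested genes was not computed on the marker-relative scale. Kdr, Tie1, Nos3, Angpt1, Pgf, Vegfb and Vegfa overlapped between the genotypes on this scale, with differences from -0.20 for Pgf to 0.36 for Angpt1.

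The co-receptors and partners of these pathways were described through a list of 16 genes, all tested. Limma called none (0.0652% of all tested genes were called), 11 had lower estimates and the median log2 fold change was -0.22. DESeq2 on recovered reads called 2 and limma with library quality weights called 8 of the 16. Shares over all genes were 5.05% in the authors' table and 19.1% in the weighted fit. In 9 of the 16 every Col6a1-/- library lay below every wildtype library, against 14.2% of all tested genes. Nrp1, the neuropilin that presents VEGF-A to the Kdr product, had 9737, 8666 and 7648 normalized counts in Col6a1-/- lungs, against 12090.3, 11729 and 11235 in wildtype lungs. Its log2 fold change was -0.43 ± 0.10 (SE, limma adjusted p 0.0942). Flt4, the receptor for VEGF-C and VEGF-D, had 2415, 2449 and 2191 in Col6a1-/- lungs, against 3505, 3272 and 2752 in wildtype lungs (74.0% of wildtype, limma adjusted p 0.0967). These 2 genes lay further below wildtype than any of the 10 main genes.

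Plxnd1, the semaphorin receptor plexin D1, stood at 82.0% of wildtype and Sema3f, a semaphorin ligand of neuropilins, at 81.0%, with limma adjusted p of 0.133 and 0.142. Ptprb, the endothelial phosphatase that restrains the Tek receptor, had 35009.5, 31651 and 28897 normalized counts in Col6a1-/- lungs, against 36594, 39382 and 39631 in wildtype lungs (82.7%, limma adjusted p 0.186). Vegfc, a ligand of the Flt4 product, stood at 84.8% and Vegfd at 98.3% of wildtype, with limma adjusted p of 0.215 and 0.898. The remaining Tie ligand, Angpt4, was low in both genotypes, with 61.0 ± 0.828 normalized counts in Col6a1-/- lungs and 62.3 ± 18.0 in wildtype lungs (SD, n = 3 each). The median of the 16 genes was -0.07 with the length and GC trend removed, and the median length of their longest transcripts was 5857 bases, against 3161 over all tested genes.

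**Figure D5:**
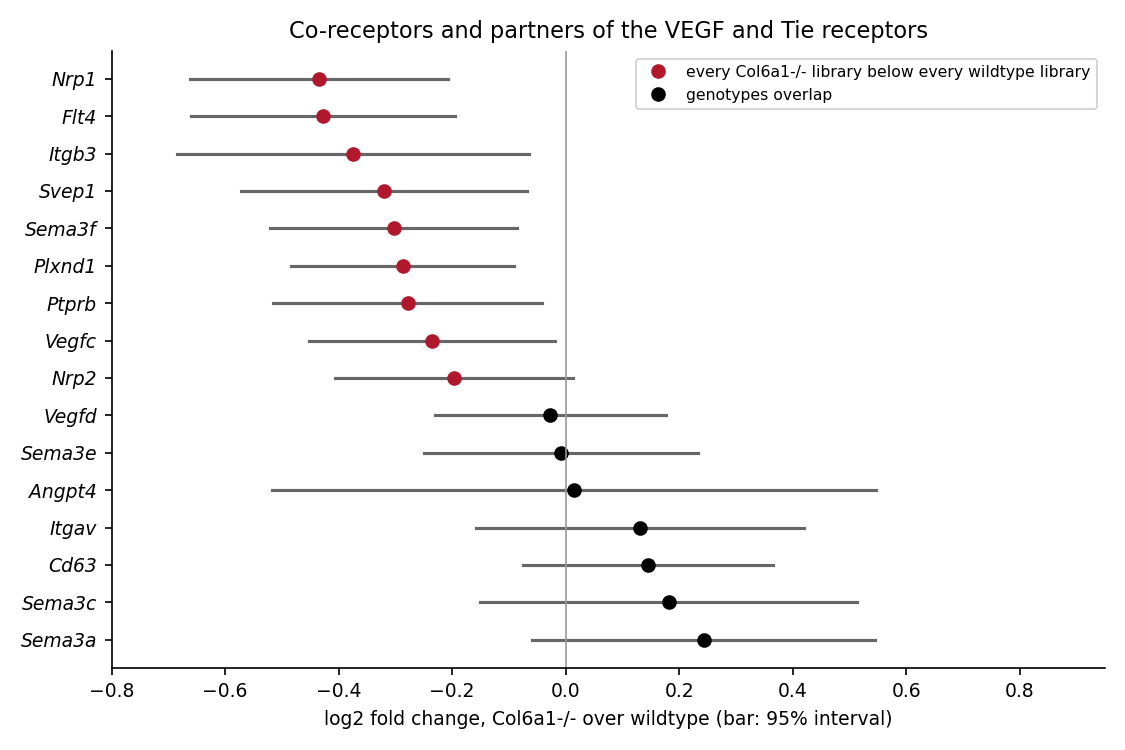
Log2 fold change of Col6a1-/- over wildtype with 95% intervals from limma for 16 co-receptors and partners. Red points mark genes for which every Col6a1-/- library lay below every wildtype library (9 genes), and black points mark overlapping genotypes. Nrp1 and Flt4 had the lowest estimates, and none passed the adjusted threshold.

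Genes of signalling inside the cell had estimates nearer 0 in the median. Among 33 genes of VEGF receptor signalling, limma called none, DESeq2 called 1 and weighted limma called 6. Over all genes, 5.05% were called in the authors' table and 19.1% in the weighted fit. Of the 33, 21 had lower and 12 higher estimates, and the median log2 fold change was -0.08. Prkcb, a protein kinase C, stood at 70.8% of wildtype and Plcg1, the phospholipase recruited by the Kdr product, at 85.1%, with limma adjusted p of 0.118 and 0.177. Fyn, a Src-family kinase, had 2293, 2256 and 2291 normalized counts in Col6a1-/- lungs, against 2632, 2546 and 2667 in wildtype lungs, a small but non-overlapping difference (87.2%, limma adjusted p 0.197). Ppp3ca, a calcineurin subunit, had an estimate of 0.27 with overlapping libraries (limma adjusted p 0.208).

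In the nitric oxide and cyclic GMP list, 25 of 26 genes were tested and limma called none, DESeq2 1 and weighted limma 7. The shares over all genes were 5.05% (authors' table) and 19.1% (weighted limma). There were 14 lower and 11 higher estimates in this list, with a median of -0.03. Hsp90ab1, a chaperone of the same family as the one that binds endothelial nitric oxide synthase, had 31595, 31467 and 32429 normalized counts in Col6a1-/- lungs, against 41869, 43306 and 40938 in wildtype lungs (75.7%, limma adjusted p 0.0942). Slc7a1, the carrier of arginine, the substrate of the enzyme, stood at 76.0% and Pde2a, a cyclic nucleotide phosphodiesterase, at 78.4%, with limma adjusted p of 0.127 and 0.148. Calm2, a calmodulin gene, had an estimate of 0.34 with overlapping libraries (limma adjusted p 0.15).

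In the hypoxia list of 25 genes, limma called none, DESeq2 3 and weighted limma 5. Weighted limma called 19.1% of all tested genes, and 5.05% were called in the authors' table. The estimates of the list were split, 12 lower and 13 higher, with a median of 0.01. Bnip3, a mitophagy receptor induced by hypoxia, had 1123, 1105 and 1169.6 normalized counts in Col6a1-/- lungs, against 697, 852 and 864 in wildtype lungs (141%, limma adjusted p 0.0869). Ankrd37 and Cited2, both induced by hypoxia-inducible factors, stood at 157% and 126% of wildtype, with limma adjusted p of 0.114 and 0.103. Hif1an, the asparagine hydroxylase that inhibits these factors, stood at 81.2% (limma adjusted p 0.108). Each of these 4 genes, named for their low p, separated the genotypes without overlap. Over the whole list, 4 genes did so higher and 4 lower in Col6a1-/- lungs, against 10.7% and 14.2% of all tested genes.

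Among 20 tested genes of the VEGF-responsive and tip cell list, limma called none, DESeq2 2 and weighted limma 2. Shares over all genes were 5.05% in the authors' table and 19.1% in weighted limma. In this list 14 had lower estimates and the median was -0.03. Notch1, the Notch receptor that limits sprouting, had 6848, 6688 and 5674 normalized counts in Col6a1-/- lungs, against 9174, 9077 and 7979.5 in wildtype lungs (73.2%, limma adjusted p 0.0939). Nr4a1, an early response gene of many stimuli, stood at 157% of wildtype, with 2424, 3102 and 2423 normalized counts in Col6a1-/- lungs, against 1511, 2298 and 1263 in wildtype lungs (limma adjusted p 0.115). Plaur and Unc5b stood at 80.0% and 80.7% with overlapping libraries (limma adjusted p 0.166 and 0.178). In the shear and junction list of 20 genes, limma called none, DESeq2 4 and weighted limma 4, beside the same shares over all genes. Of the 20, 12 had lower estimates (median -0.01). Heg1, a partner of the cerebral cavernous malformation complex, stood at 77.1%, and Pdcd10, a member of that complex, at 154%, with limma adjusted p of 0.114 and 0.123.

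Transcripts of other cell types also differed between the pools. All 14 red cell and platelet markers had higher estimates in Col6a1-/- lungs. Limma called none of the 14, DESeq2 9 and weighted limma 11. Over all genes, the shares were 5.05% in the authors' table and 19.1% in weighted limma. The summed levels of the 14 were 67194 to 108712 normalized counts in Col6a1-/- and 46099.9 to 52204 in wildtype lungs. Platelets carry angiopoietin 1, and Ppbp, a platelet chemokine gene of this list, had 594, 351 and 589 normalized counts in Col6a1-/- lungs, against 239, 248 and 200.4 in wildtype lungs (limma adjusted p 0.0693). Among the Col6a1-/- libraries both Angpt1 and Ppbp were lowest in replicate 2, while among the wildtype libraries Angpt1 was highest and Ppbp lowest in replicate 3. The part of platelet RNA in the Angpt1 values was not tested. The summed cardiac muscle markers were 28771 to 30339.5 in Col6a1-/- and 21176 to 27862 in wildtype lungs, and the fat tissue markers were 11717 to 16561 in Col6a1-/- and 5963 to 11239 in wildtype lungs, and their part in the Vegfb values was not tested.

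The summed alveolar type 1 markers, from a cell type that makes VEGF-A, were 326419 to 350945 in Col6a1-/- and 340496 to 346845 in wildtype lungs, with overlap. Ager, a receptor gene used to mark these cells, had 58324, 75041 and 69651 normalized counts in Col6a1-/- lungs, against 75438, 72247 and 60001 in wildtype lungs. Pericyte markers, from cells that express Angpt1 in several tissues, summed to 61918 to 66778 in Col6a1-/- and 64350.4 to 67874 in wildtype lungs and had 9 lower and 5 higher estimates. The summed general capillary markers were 159077 to 182141 in Col6a1-/- and 188463 to 201793 in wildtype lungs, without overlap, and the summed aerocyte markers were 97788 to 105513 in Col6a1-/- and 102827 to 108199 in wildtype lungs, with overlap. Some lists share genes, so their counts and sums are not separate results. Ptprb is in the partner, pan-endothelial and general capillary lists. Cdh5 and Pecam1 are in the shear and junction list and the pan-endothelial list, and Flt4 is in the partner and lymphatic lists. Of the 10 general capillary markers, 6 had lower and 4 higher estimates. Their median log2 fold change was -0.13, or -0.07 with the length and GC trend removed. Plvap, which forms the diaphragms of fenestrae and caveolae, had the lowest p of this list and stood at 76.3% of wildtype (limma adjusted p 0.0942).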

How the data were processed

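RNA from perfused right lung lobes was measured in 3 Col6a1-/- and 3 wildtype libraries, each a pool of 2 animals, so that p-values measure the spread between pools. Per the submitters' processing notes, which state neither role nor order, the build was GRCm38.p5 and the tools were DESeq2 1.16.1, featureCounts, R 3.4.1, STAR 2.5.2b, Subread 1.5.0p3 and Trimmomatic 0.36. The signal the authors deposited was, by its table name, scaled with DESeq2. Their deposited comparison listed p-values, raw and adjusted, beside log2 fold changes, and a score column for the mean and for the statistic. Multiplied by a size factor of its library (0.911 to 1.25), 100% of the values came within 1e-06 of whole reads. For Col6a1-/- replicate 3 the factor was 1.0003, and its deposited values were still not whole (7288.54 for Flt1). Recovered reads served for depth and for count models as alternatives. 

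Of 49568 rows, 16879 reached 10 normalized counts in 3 or more libraries. These were log2-transformed after adding 1 and tested two-sided in limma-trend (limma 3.58.1 under R 4.3.3), with p adjusted by Benjamini-Hochberg across these genes. Fold changes on that scale understate changes of low counts. The script was checked on simulated data. The planted changes were larger than any estimate of the 10 genes, so that check does not cover changes of their size. The genes, lists and alternatives were chosen with earlier results of these data known. Named were the 10 genes, Col6a1, called or lowest-p genes of each pathway list, some abundant or lowest-p cell markers, and the gene closest in pattern to each of the 10 (that for Vegfb is not reported here); a few partners and markers outside this rule (Ptprb, Vegfc, Vegfd, Angpt4) were chosen after their values were seen. Positions, lengths and GC came from GENCODE M21 on GRCm38 (95.3% of rows matched by symbol), and promoters from RefSeq on GRCm38.p6, which matched 7 of the 10 genes. Alternatives used edgeR 4.0.16 and DESeq2 1.42.0 on recovered reads, pseudocounts of 0.5 and 5, other filters and scalings, robust moderation, library weights, the male share as a covariate, a spline trend (5 degrees of freedom each) on transcript length and GC removed from each library, the replicate number as a block and each library left out. Python 3.11.15 drew the figures.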

Additional observations from a re-analysis of the deposited data

How the results depend on the processing

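No gene of the 10 was called by limma under pseudocounts, filters, median centring, quantile normalization, robust moderation, the length and GC trend, the male share, the replicate block or any library left out, nor by edgeR. Library quality weights called 2 (Flt1 and Angpt1), in a fit that called 19.1% of all tested genes. DESeq2 called 1 (Flt1), beside 5.05% of genes in the authors' table. The number with lower estimates was 7 to 9 in all settings. The median of the 10 was -0.11 under quantile normalization and -0.093 with the length and GC trend removed. Over all genes, 93 were called without a filter, 7 with a filter at 50, 26 with median centring, 30 with robust moderation, 3225 with library quality weights, 742 by DESeq2, 81 with the trend removed and 0 in limma with the male share (1306 at an unadjusted p under 0.05), against 11, and 0 to 1383 with 1 library left out (0 in limma without Col6a1-/- replicate 3 or wildtype replicate 1, with 1979 and 1902 at an unadjusted p under 0.05, 2 without wildtype replicate 2, 47 without Col6a1-/- replicate 2 and 1383 without wildtype replicate 3). The replicate block called 7 genes and none of the 10. Correlations of deviations between same-numbered pools were -0.136, 0.106 and -0.00588. These are deviations from means of 3 pools, so they cannot decide whether the numbers pair the samples. Some signs turned. Vegfa was 0.0525 under quantile normalization, 0.0155 with the trend removed and -0.0991 to 0.0127 with 1 library left out (positive without Col6a1-/- replicate 3), and Vegfb was -0.0273 with the trend removed and -0.00488 to 0.147 with 1 library left out (negative without Col6a1-/- replicate 2). With 1 library left out, the log2 ratio of Nos3 to Kdr ran from -0.129 to 0.0276 (positive, at 0.00576 and 0.0276, without replicate 1 of Col6a1-/- and of wildtype) and that of Tie1 to Tek from -0.0716 to 0.0709 (negative without Col6a1-/- replicate 2). Vegfb to Vegfa was -0.0429 with the trend removed, against 0.11 with it left in. The removal was added for ratios and marker-relative values after seeing the data. Relative to endothelial markers, Vegfa ran from -0.0432 to 0.071 with 1 library left out, and was -0.0666 against the marker median and -0.0173 without the 2 highest markers, while Kdr was 0.0178 and Tie1 0.00424 with the trend removed, against -0.13 and -0.11 with it left in. The cause of these changes was not tested. With 3 pools per genotype, an exact test cannot go below 0.1.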

Other observations

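The gene closest in pattern to each of the 10 was sought among 12990 other genes with a mean of at least 100 normalized counts, by the root mean square difference of centred log2 values over the 6 libraries. The closest to Flt1 was Zfp592, at 0.018, the closest to Kdr was Sulf1, at 0.0218, and the closest to Tek was Stx2, at 0.0134. For Angpt1 it was Zfp182 (0.023), for Angpt2 it was Irf4 (0.00835), for Tie1 it was Ackr2 (0.00957) and for Nos3 it was Ret (0.0284). For Vegfa it was Traf3ip1 (0.0195) and for Pgf it was Grin2d (0.0308). The number of genes within 0.05 differed between the 10, from 1 for Pgf, 15 for Angpt1, 27 for Nos3 and 29 for Flt1 to 179 for Tie1 and 248 for Tek.

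Markers of further cell types were counted in the same way. Of 11 aerocyte markers 6 had lower estimates, of 10 general capillary markers 6, and of 7 tested lymphatic endothelial markers 6, none of them called in limma. Lyve1, a hyaluronan receptor of lymphatic endothelium and some macrophages, stood at 63.8% of wildtype (limma adjusted p 0.0786). Of 16 alveolar type 1 markers 12 had lower estimates, of 14 alveolar type 2 markers 11, of 10 smooth muscle markers 9, of 12 alveolar fibroblast markers 6, of 11 adventitial fibroblast markers 4 and of 16 macrophage markers 15, with medians of -0.10, -0.13, -0.23, 0.0090, 0.02 and -0.18 on the log2 scale. The smooth muscle median was 0.12 with the male share as a covariate. Summed smooth muscle markers were 36512 in wildtype replicate 3, below the 37376 to 38356 of the Col6a1-/- libraries.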
